A study of Mus musculus with 12 samples.

Results

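Plasminogen activators and matrix proteases were followed in the mouse hippocampus after pilocarpine. The group comprised 9 genes, namely Plat, Plau, Plaur, Serpinb2, Mmp2, Mmp9, Timp1, Adamts1 and Adamts9, of 19938 genes that had a probe set of their own on the array. Members were chosen with earlier results of these data known and were found by their symbol in the platform annotation. Their counts, set below against the shares of all tested probe sets, are therefore descriptive. Of several probe sets for 1 gene, the one with the highest mean level over all arrays was kept, a rule that used no test between groups. All 9 had such a probe set, 8 of them a single one and Adamts9 6. No filter on low values was applied, although the mean level of 5 members, Plau, Plaur, Serpinb2, Mmp9 and Timp1, was below the median of the 23410 probe sets tested.

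Hippocampi of 12 mice, 3 in each of 4 groups, were profiled on Affymetrix Mouse Gene 1.0 ST arrays, and every mouse had its own array. Heterozygous mice with status epilepticus (SE) carried 1 functional Srf allele and were killed after 40 min of continuous seizure activity induced by 335 or 350 mg/kg pilocarpine, a muscarinic agonist. Heterozygous controls had the same genotype and received Ringer solution. Srf mutant mice with pilocarpine, in which both alleles were removed, developed grade 4 seizures without reaching SE. Mutant controls received no pilocarpine. All groups, controls included, carried the tamoxifen-inducible CaMKCreERT2 transgene, active in excitatory forebrain neurons, and were treated with tamoxifen. The deletion is limited to cells with this transgene active. The labels give an age of 7 to 10 weeks. They name the heterozygous mice wild-type or control and the injected mutants mice with seizure, and the genotypes and seizure grades above follow the methods of the study. Neither the dose of an individual mouse nor the time at which the mutants without SE were harvested is given in the sources used here, and mutants that reached SE were not analysed here. Since no mutant of this comparison had SE, loss of Srf and absence of SE cannot be told apart wherever both responses are compared.

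Extracellular proteolysis in the brain rests on a cascade and on its brakes. Tissue plasminogen activator (Plat) and urokinase (Plau), which binds a membrane receptor (Plaur), convert plasminogen to plasmin, which degrades matrix proteins and cleaves pro-forms of growth factors, and serpins such as Serpinb2 block both activators. The gelatinases Mmp2 and Mmp9 are held in check by Timp1, and the secreted proteases Adamts1 and Adamts9 cleave the proteoglycans aggrecan and versican, building blocks of the perineuronal nets. Several of these genes are known to respond to neuronal activity, Plat being among the first described in the seizing hippocampus.

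RefSeq start-site windows (GRCm38.p6) were available for 5 of the 9 members, and the 250 bases before the start site are shown for the 3 members of these that rose in SE. Each runs 5′ to 3′ on the strand of the gene. Capitals mark matches to sequences bound by factors of the immediate early response. These were searched on both strands, namely the cyclic AMP response element TGACGTCA (CRE), its shorter core TGACG, which every full CRE contains, the AP-1 element TGANTCA, and the CArG box of SRF. The windows were chr16:85803114-85803363 on the minus strand for Adamts1, chr7:24462233-24462482 on the plus strand for Plaur and chr6:92943535-92943784 on the minus strand for Adamts9.
Adamts1: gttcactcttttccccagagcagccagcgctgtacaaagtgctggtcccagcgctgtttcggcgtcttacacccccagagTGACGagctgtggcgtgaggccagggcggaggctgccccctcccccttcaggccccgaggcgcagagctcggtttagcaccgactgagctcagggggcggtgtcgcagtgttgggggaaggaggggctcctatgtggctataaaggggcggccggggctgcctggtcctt
Plaur: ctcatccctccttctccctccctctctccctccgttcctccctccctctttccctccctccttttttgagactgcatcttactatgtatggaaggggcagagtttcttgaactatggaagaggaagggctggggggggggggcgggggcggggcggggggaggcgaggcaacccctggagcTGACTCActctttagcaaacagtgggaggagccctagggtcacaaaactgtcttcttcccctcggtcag
Adamts9: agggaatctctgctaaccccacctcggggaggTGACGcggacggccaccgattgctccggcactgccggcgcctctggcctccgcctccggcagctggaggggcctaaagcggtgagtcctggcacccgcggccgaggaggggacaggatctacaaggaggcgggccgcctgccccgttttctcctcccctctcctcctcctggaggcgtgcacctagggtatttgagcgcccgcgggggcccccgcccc
The Adamts1 window held the CRE core 170 bases before the start site, and the Adamts9 window held it 218 bases before. The Plaur window held an AP-1 element, TGACTCA, 69 bases before the start site. Of 32851 windows of the same length in the table, 17.8% held the CRE core, 6.75% an AP-1 element, 1.55% the full CRE and 1.47% a CArG box, so that the core is a frequent match. Neither the full CRE nor a CArG box was matched in the windows of the 5 members, which included Timp1 with the CRE core 84 bases before its start site, and Serpinb2 with the AP-1 element TGAATCA at 94 bases in 1 window and at 181 bases in another that overlaps it. A match describes letters only, and no binding was measured in these windows.

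The arrays had medians between 6.78 and 6.86 (log2). Srf was at 8.83 to 8.90 in mutants with pilocarpine, 8.80 to 8.96 in mutant controls, 10.16 to 10.27 in heterozygous mice with SE and 9.53 to 9.60 in heterozygous controls, so that every mutant array lay below every heterozygous one. The summed level of 6 neuronal markers was between 15.82 and 15.93 on all arrays, that of 6 markers of hippocampal regions between 13.11 and 13.27, and that of 6 neutrophil markers between 8.31 and 8.45. The summed level of 5 choroid plexus markers varied more, from 9.80 to 10.03 in heterozygous mice with SE, 9.79 to 10.92 in heterozygous controls, 9.73 to 10.32 in the mutants given pilocarpine and 9.77 to 10.27 in those without, and its part in the results was not tested. Xist exceeded 9 on 0 of 3 arrays of heterozygous mice with SE, 1 of 3 of heterozygous controls, 1 of 3 of mutants with pilocarpine and 2 of 3 of mutant controls, so that females were unevenly spread; a fit with sex as a covariate changed no call of a member. In whole tissue, a change in the number of cells of a type and a change in RNA per cell cannot be told apart.

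The first question was which of these genes respond to SE in heterozygous mice. A limma fit of all 4 groups over all 23410 probe sets, with Benjamini-Hochberg adjustment and a threshold of 0.05, called 4 of 9 members higher and 0 lower, namely Adamts1, Plaur, Plat and Adamts9, against 5.08% of all tested probe sets called higher and 6.93% called lower. Adamts1 and Plaur also passed the limits used by the study, a 2-fold rise at an adjusted p under 0.001, which 0.636% of probe sets did. The other 5 members did not pass, and the median log2 fold change of the 9 was 0.22, against -0.03 over all tested probe sets.

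**Figure D1:**
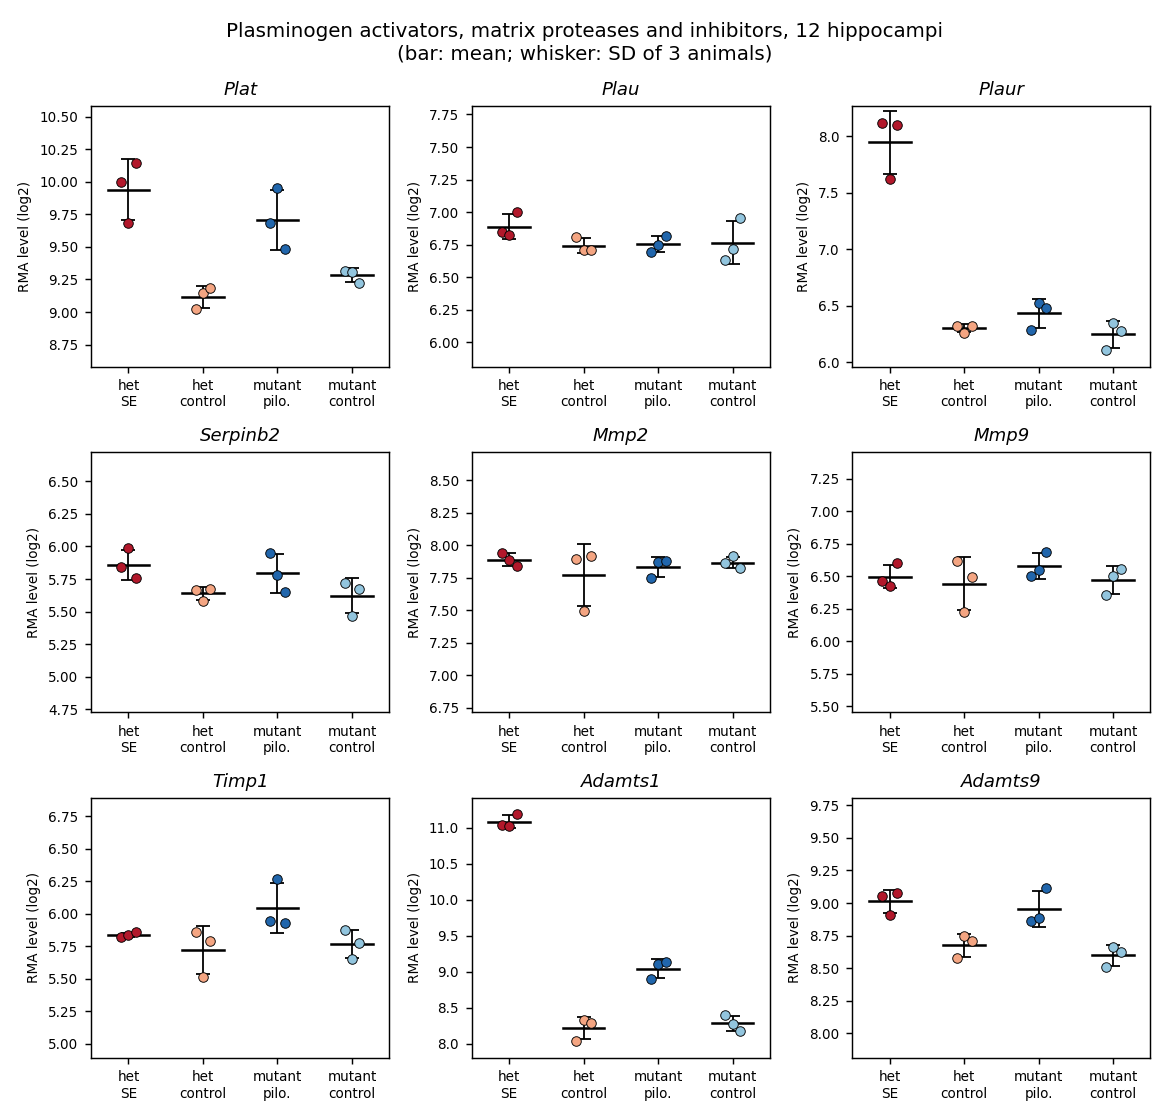
RMA level (log2, y axis) of the 9 genes in each of 12 hippocampi, by group (x axis). Each point is 1 animal, with the mean of its group as a bar and the SD as a whisker (n = 3 each). The y axes span at least 2 log2 units and differ in position. Plaur was high in the 3 heterozygous mice with SE, at 7.62 to 8.12, and at 6.11 to 6.53 in the other 9 mice, whereas Adamts1 of mutants with pilocarpine lay between both.

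Among the plasminogen activators, Plat, which encodes tissue plasminogen activator, had levels of 10.00, 9.68 and 10.14 in heterozygous mice with SE, and 9.02, 9.15 and 9.18 in heterozygous controls. All SE animals lay above all controls. The log2 fold change was 0.82 (adjusted p = 0.000577 by limma, standard error 0.12), a 1.77-fold rise. In mutants with pilocarpine Plat was at 9.69, 9.95 and 9.49, and in mutant controls at 9.32, 9.31 and 9.22. The groups again did not overlap, but the log2 fold change of 0.42 (standard error 0.12) did not pass the threshold (adjusted p = 0.098 from limma, unadjusted 0.00387). Its 95% confidence interval ran between 0.16 and 0.68. The difference of the mutant from the heterozygous response was -0.40 (95% confidence interval -0.77 to -0.03) and did not pass either (adjusted p = 0.266 from limma), so that a weaker response of Plat in mutants was not established. Both groups given pilocarpine spread more widely than the controls, with SDs of 0.23 in mutants and 0.24 in heterozygous mice, against 0.05 in mutant controls and 0.09 in heterozygous controls.

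For Plau, the gene of urokinase, no contrast passed. It was at 6.84, 6.82 and 7.00 in heterozygous mice with SE and at 6.81, 6.71 and 6.71 in heterozygous controls. The lowest SE value stood just above the highest control, and the log2 fold change was 0.15 (adjusted p = 0.286 from limma, 95% confidence interval -0.02 to 0.31). Mutants with pilocarpine, at 6.69 to 6.81, overlapped with mutant controls, at 6.63 to 6.95.

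The gene of the urokinase receptor, Plaur, rose in SE. Levels were 8.12, 7.62 and 8.10 in heterozygous mice with SE, and 6.32, 6.26 and 6.32 in heterozygous controls. Even the lowest SE animal stood well above the highest control. Plaur rose by a log2 fold change of 1.64 (adjusted p = 1.13e-06 by limma, standard error 0.11), or 3.12-fold. Mutants with pilocarpine had 6.29, 6.53 and 6.48, and mutant controls had 6.11, 6.35 and 6.28. These groups overlapped, and the log2 fold change of 0.19 did not pass (adjusted p = 0.494 from limma, 95% confidence interval -0.06 to 0.44). The mutant response differed from the heterozygous one by -1.46 (adjusted p = 0.000236 by limma, standard error 0.16).

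Markers of vessels and meninges varied inside groups, in some animals in the same direction as Plat and Plaur and in others not. The fibroblast list held Col1a1, Col1a2, Dcn, Lum, Pdgfra and Slc6a13. Sums were taken over unlogged levels, so that abundant genes weigh most. Whether these genes are limited to fibroblasts in this tissue was not tested. Replicate 2 of the heterozygous mice with SE, the lowest of its group in Plat, Plaur, Adamts1 and Adamts9, also had the lowest summed level of 7 endothelial markers (11.18, against 11.72 and 11.71 in the other SE animals), of 6 pericyte and smooth muscle markers (10.86, against 11.18 and 11.27) and of 6 fibroblast markers (11.71, against 12.53 and 12.36). Without it the log2 fold change was 0.95 for Plat and 1.80 for Plaur. Replicate 2 of the mutants with pilocarpine, the highest of its group in Plat, had the highest fibroblast sum (12.88, against 12.66 and 12.37), and without it Plat had a log2 fold change of 0.30 in mutants. By contrast, replicate 2 of the mutant controls had a fibroblast sum of 11.73, against 12.68 and 12.66, but the highest Plaur of its group, and replicate 3 of the mutants with pilocarpine had the highest endothelial sum of its group (11.54) but the lowest Plat. Across groups, the endothelial sum spanned 11.18 to 11.72 in SE and 11.42 to 11.63 in heterozygous controls. Of 7 markers 1 was called in SE, Tek, lower by a log2 fold change of -0.45. The 7 had a median of -0.10 and a highest value of 0.34. Of the pericyte and smooth muscle markers 1 of 6, Pdgfrb, was called lower (-0.48), with a list median of 0.07 and a highest value of 0.28. Of the fibroblast markers 0 of 6 were called, with a median of -0.32. Among 6 microglial markers, Cx3cr1 (-0.19) and P2ry12 (-0.23) were called lower in SE, with a list median of -0.05. These counts stand against 6.93% of all tested probe sets called lower in SE. No marker of neurons, hippocampal regions, astrocytes, choroid plexus or neutrophils was called in either response to pilocarpine. The part of these cells in the results was not tested.

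Both inhibitors among the members stayed under the threshold. Serpinb2, which encodes plasminogen activator inhibitor 2, was at 5.84, 5.98 and 5.75 in heterozygous mice with SE and at 5.66, 5.58 and 5.67 in heterozygous controls. The groups were separate, with a log2 fold change of 0.22 (adjusted p = 0.129 by limma, standard error 0.085, unadjusted 0.0239). In mutants it was at 5.65 to 5.95 with pilocarpine and at 5.47 to 5.72 in controls, and the log2 fold change was 0.17 (adjusted p = 0.382 from limma). Timp1, the gene of tissue inhibitor of metalloproteinases 1, was at 5.82 to 5.86 in heterozygous mice with SE, within the controls at 5.52 to 5.86. In mutants with pilocarpine it was at 5.94, 6.27 and 5.93, above the mutant controls at 5.87, 5.65 and 5.78. The log2 fold change in mutants was 0.28 (standard error 0.10) and did not pass after adjustment (adjusted p = 0.209 from limma, unadjusted 0.0176). The highest value, in replicate 2 with pilocarpine, and the lowest, in replicate 2 of the mutant controls, were the animals with the highest and the lowest fibroblast sum of the mutants (12.88 and 11.73). Replicate 2 of the heterozygous controls was also the lowest of its group in both (5.52 and 12.48). By contrast, replicate 2 with SE had the lowest fibroblast sum of its group (11.71) but not the lowest Timp1 (5.83). The part of these cells was not tested. Without replicate 2 with pilocarpine the log2 fold change was 0.17. Timp1 lies on the X chromosome, and with sex as a covariate the value was 0.25 (adjusted p = 0.299 from limma).

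No change of the gelatinases passed the test. Mmp2, gelatinase A, was at 7.94, 7.88 and 7.84 in heterozygous mice with SE and at 7.90, 7.49 and 7.92 in heterozygous controls, which overlapped. Its log2 fold change of 0.12 had a 95% confidence interval between -0.08 and 0.32 (adjusted p = 0.495 from limma). Mmp9, gelatinase B, was at 6.47, 6.43 and 6.60 in heterozygous mice with SE and at 6.62, 6.22 and 6.49 in heterozygous controls, with a log2 fold change of 0.05 (95% confidence interval -0.15 to 0.26, adjusted p = 0.798 from limma). Both upper bounds were under the lower bounds of Plaur (1.39) and Adamts1 (2.67). In mutants both overlapped, with log2 fold changes of -0.03 for Mmp2 and 0.11 for Mmp9. Replicate 2 of the heterozygous controls was the lowest array of its group in Mmp2, Mmp9 and Timp1. Without it the log2 fold changes in SE were -0.02 for Mmp2, -0.06 for Mmp9 and 0.01 for Timp1.

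Adamts1 had the largest log2 fold change of the 9 genes in both genotypes. This secreted protease was at 11.03, 11.02 and 11.18 in heterozygous mice with SE and at 8.04, 8.33 and 8.29 in heterozygous controls. The log2 fold change was 2.86 (adjusted p = 4.59e-10 by limma, standard error 0.088), or 7.25-fold, and place 20 among the fold changes of all 23410 probe sets. In mutants with pilocarpine it was at 8.90, 9.10 and 9.13, above mutant controls at 8.39, 8.28 and 8.18. It rose by a log2 fold change of 0.76 (adjusted p = 0.000879 by limma, standard error 0.088), or 1.70-fold. No array of the mutants with pilocarpine overlapped with any other group. The mutant response differed from the heterozygous one by -2.10 (adjusted p = 1.28e-06 by limma, standard error 0.12), that is, the rise in mutants without SE was smaller than in heterozygous mice with SE.

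For Adamts9 the answer depended on the probe set. By the probe set with the highest mean, levels were 9.05, 8.91 and 9.08 in heterozygous mice with SE and 8.58, 8.75 and 8.71 in heterozygous controls. They were 8.86, 8.89 and 9.11 in mutants with pilocarpine and 8.51, 8.66 and 8.62 in mutant controls. Animals given pilocarpine lay above their controls in both genotypes. The log2 fold change was 0.34 in heterozygous mice (adjusted p = 0.0113 by limma, standard error 0.076) and 0.36 in mutants (adjusted p = 0.037 by limma, standard error 0.076), and the difference of the mutant from the heterozygous response was 0.02 (95% confidence interval -0.21 to 0.25). The call in mutants was lost when any of 9 of the 12 arrays was left out, namely any of the mutants, replicates 2 and 3 of the heterozygous controls or replicate 3 with SE, with an adjusted p by limma of up to 0.109. The call in heterozygous mice was lost without replicate 1 of the controls (adjusted p = 0.0538 from limma) or replicate 3 with SE (adjusted p = 0.0541 from limma).

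The other 5 probe sets of Adamts9 gave larger values in heterozygous mice. All 6 were called higher in SE, with log2 fold changes between 0.34 and 1.06 and a median of 0.62, the representative being the lowest. In mutants 4 of 6 were called, between 0.36 and 0.58 with a median of 0.40. Of all tested probe sets 5.08% were called higher in SE and 0.871% in mutants. Mutants with pilocarpine lay above the mutant controls for all 6 probe sets of Adamts9. These 6 measure 1 gene on the same arrays and are not independent. The share of all probe sets separated in this way was not determined. Probe set 4 by level was at 8.43, 8.35 and 8.35 in mutants with pilocarpine, 7.85, 7.77 and 7.77 in mutant controls, 8.95, 8.74 and 9.06 in heterozygous mice with SE, and 7.74, 7.83 and 7.998 in heterozygous controls. Its mutant response differed from the heterozygous one by -0.48 (adjusted p = 0.0354 by limma, standard error 0.11), and that of probe set 5 by -0.63 (adjusted p = 0.00524 by limma, standard error 0.11). The mean of all 6 gave log2 fold changes of 0.69 in heterozygous mice and 0.43 in mutants, with a difference of -0.27 that did not pass (adjusted p = 0.111 from limma). Which transcripts the probe sets cover is not given in the sources used here.

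**Figure D2:**
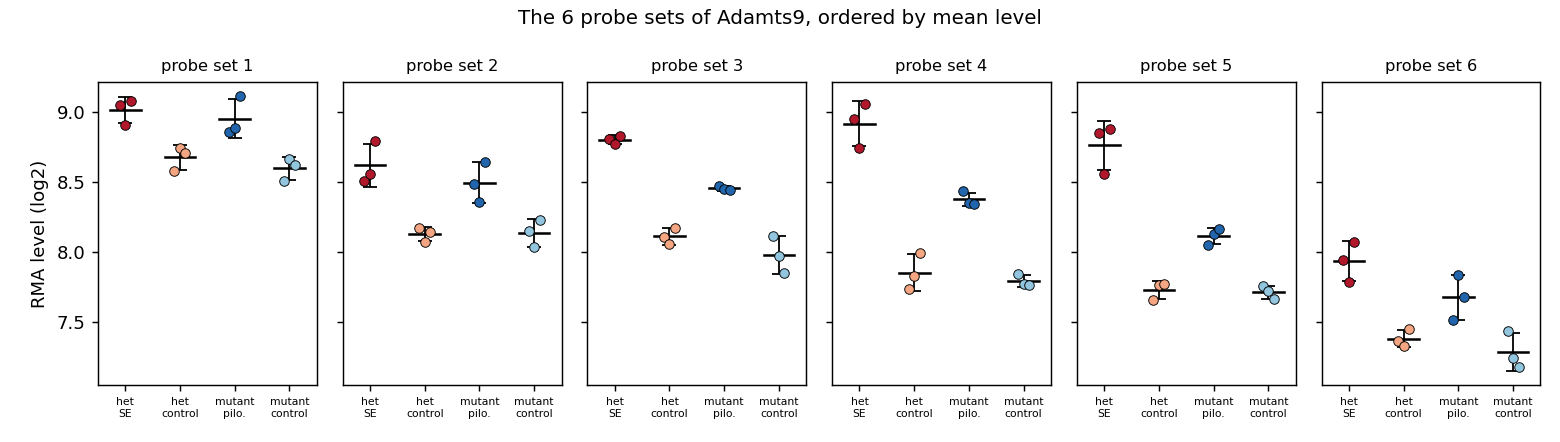
RMA level (log2, y axis) of the 6 probe sets of Adamts9 by group (x axis), from the highest mean level at the left to the lowest at the right. Points are animals, bars are means and whiskers SDs (n = 3 each). The groups with pilocarpine lay above their controls in every panel, and in probe sets 3, 4 and 5 the mutants with pilocarpine all stood below the heterozygous mice with SE.

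The second question was how Srf mutants responded to pilocarpine without SE. Of the 9 members 2 were called higher, Adamts1 and Adamts9, and 0 lower, against 0.871% of all tested probe sets called higher. At an unadjusted p under 0.05 there were 4 higher, with Plat and Timp1 added, against 5.66% of all tested probe sets. The median log2 fold change was 0.19, and that of all tested probe sets was -0.00.

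**Figure D3:**
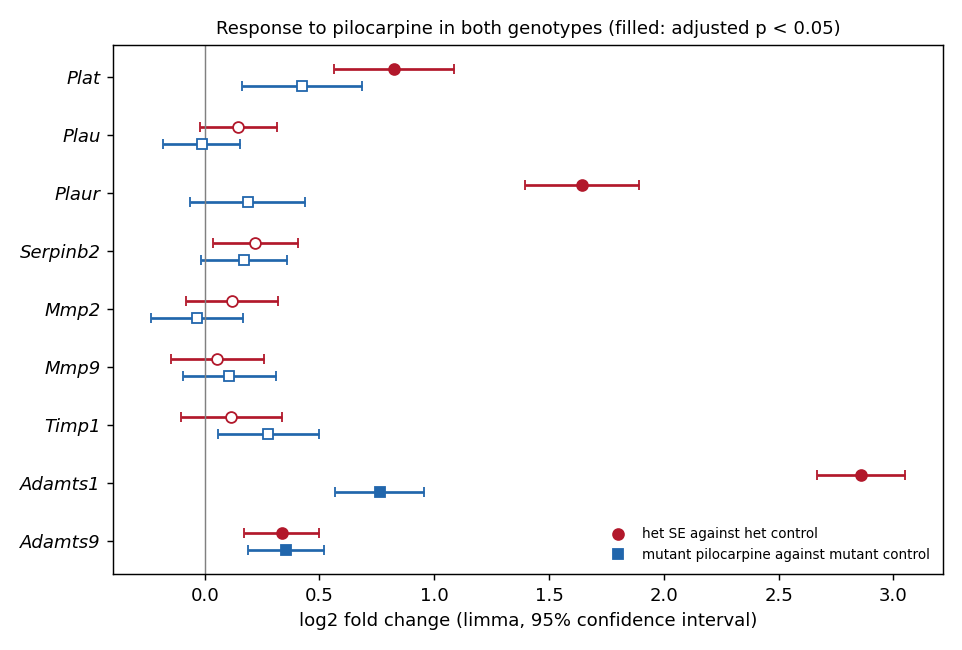
Log2 fold change (x axis, with 95% confidence intervals from limma, n = 3 mice per group) of the 9 genes for heterozygous mice with SE against heterozygous controls (circles) and for mutants with pilocarpine against mutant controls (squares). Filled symbols passed an adjusted p under 0.05. The intervals of Adamts1 lay at 2.67 to 3.05 and 0.57 to 0.95, whereas those of the representative probe set of Adamts9 covered nearly the same range. The mean of all probe sets of Adamts9, not drawn here, gave 0.69 in heterozygous mice and 0.43 in mutants.

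The difference between both responses, tested as the interaction, was called for 2 of 9 members, Plaur and Adamts1, both lower in the mutants, against 2.12% of all tested probe sets called lower. At an unadjusted p under 0.05 there were 3 lower, with Plat added, against 7.16% of all tested probe sets. Between the controls of both genotypes no member passed: mutant controls against heterozygous controls gave 0 of 9 calls by limma, where 0.12% of all probe sets were called in either direction, and also 0 at an unadjusted p under 0.05, where 8.73% were. The log2 fold changes between the controls ran from -0.08 for Adamts9 to 0.17 for Plat (adjusted p = 0.743 from limma). Mutant controls of Plat, at 9.22 to 9.32, lay above heterozygous controls, at 9.02 to 9.18.

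Other genes of the same pathways were examined as lists, whose counts stand against the shares of all tested probe sets called higher (5.08%) and lower (6.93%) in SE and higher in mutants (0.871%). Of 18 measured further genes of the plasminogen system, 2 rose and 1 fell in SE, and 0 were called in mutants. Thbd, thrombomodulin, an endothelial anticoagulant receptor, was at 9.30, 8.40 and 9.17 in heterozygous mice with SE and at 8.20, 7.99 and 8.18 in heterozygous controls, with a log2 fold change of 0.84 (adjusted p = 0.0306 by limma, standard error 0.23). In mutants Thbd was at 8.41, 9.08 and 8.32 with pilocarpine, above the controls at 8.08, 7.82 and 8.23. This log2 fold change of 0.56, the highest of the list in mutants, was not called. The lowest SE value of Thbd was again in replicate 2, the animal with the lowest endothelial sum of its group. Other groups did not follow this order. Replicate 2 of the heterozygous controls had the lowest Thbd of its group (7.99) but the highest endothelial sum (11.63). Replicate 2 of the mutants with pilocarpine had the highest Thbd of its group (9.08) but not the highest sum (11.46, against 11.54 in replicate 3). Lrp1, an endocytic receptor that clears tissue plasminogen activator, rose by 0.48 and Serpinb6a fell by 0.22. Lrp1 was at 11.86 to 12.02 with SE and at 11.39 to 11.50 in heterozygous controls. Mutant controls had 11.88, 11.88 and 11.41, so that some of them reached the levels with SE. Plg, plasminogen itself, was at 5.75 to 6.01 in heterozygous mice with SE and at 5.75 to 5.87 in heterozygous controls. The list median was 0.01, against -0.03 over all tested probe sets.

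Of 18 further matrix metalloproteinases 1, Mmp23, a share near that background, was called higher in SE with a log2 fold change of 0.21, and 0 in mutants, where all 18 lay between -0.07 and 0.09. Of 9 further inhibitors 1 was called in SE, Timp3, a matrix-bound inhibitor of metalloproteinases and ADAMTS proteases. It was at 10.66, 10.34 and 10.77 in heterozygous mice with SE and at 10.30, 10.08 and 10.12 in heterozygous controls, a rise of 0.42 on the log2 scale (adjusted p = 0.0436 from limma). Of 16 further ADAMTS genes 3 rose in SE, Adamts6 (0.37), Adamts3 (0.33) and Adamts20 (0.24), and none was called in mutants. Adamts20 was the 1 of them with a called difference between both responses (-0.40, adjusted p = 0.0142 from limma).

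Among substrates of these proteases, 22 genes were measured, of which 7 rose and 1 fell in SE, with a median log2 fold change of 0.14, and 2 rose in mutants, Lamc1 (0.28) and Tgfb1 (0.23), with a median of 0.09. Bdnf, whose pro-form plasmin cleaves, was at 9.21, 9.84 and 9.85 in heterozygous mice with SE and at 7.88, 7.86 and 8.01 in heterozygous controls, a rise of 1.72 on the log2 scale (adjusted p = 2.72e-06 by limma, standard error 0.13). The next were Tnc, the matrix glycoprotein tenascin-C (0.51), Reln, the secreted protein reelin (0.49), and Lamc1, a laminin chain (0.48). The mutant response was lower than the heterozygous one for Bdnf (-1.45, adjusted p = 0.000753 from limma) and Tnc (-0.55, adjusted p = 0.0352 from limma).

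**Figure D4:**
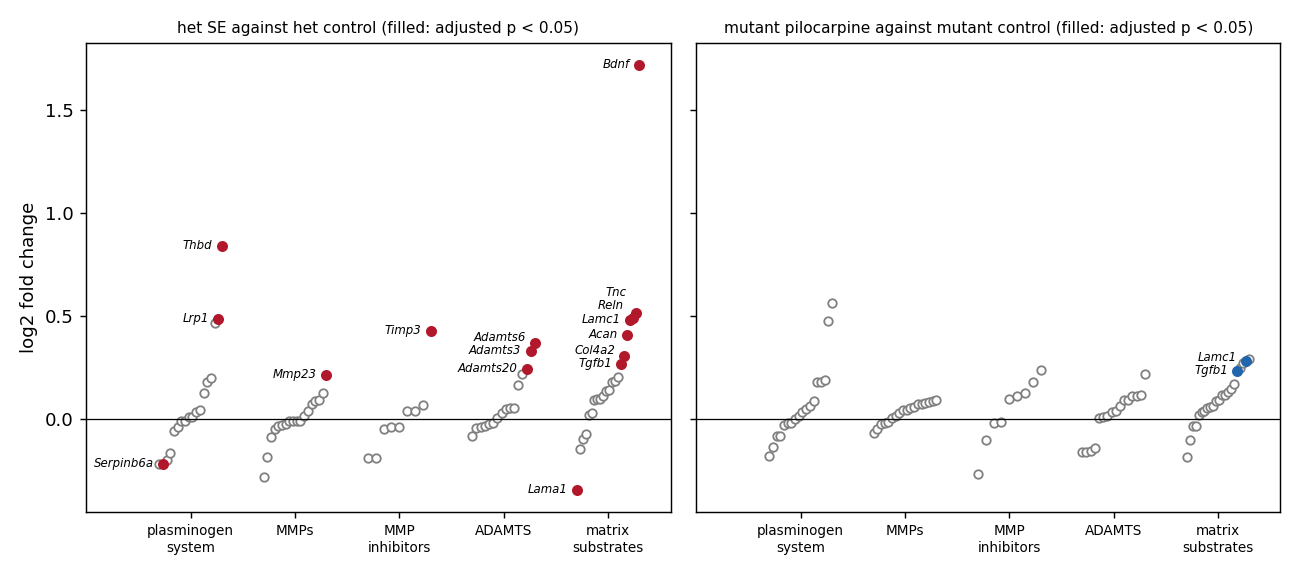
Log2 fold change (y axis) of further genes of the plasminogen system, matrix metalloproteinases (MMPs), their inhibitors, ADAMTS proteases and matrix substrates (x axis, genes of a list ordered by value), for heterozygous mice with SE against heterozygous controls at the left and mutants with pilocarpine against mutant controls at the right. Each point is a gene, filled and named where the adjusted p was under 0.05; Bdnf at 1.72 stands apart at the left, and Lamc1 and Tgfb1 are the filled points at the right.

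Patterns most like those of the called members were sought among 19937 other genes by the root mean square difference of values centred on their own mean over the 12 arrays. For Adamts1 the closest were Tiparp (0.120), Ptgs2, which encodes cyclooxygenase-2 (0.167), and Cwc25 (0.240). Plaur was closest to Rassf1 (0.135), Ccnl1 (0.142) and Jun, a subunit of AP-1 (0.163). Plat was closest to Akap12 (0.106), Smad7 (0.128) and Mcl1 (0.146), all of which had log2 fold changes between 0.66 and 0.84 in SE and between 0.33 and 0.40 in mutants. Adamts9, by its representative, was closest to Myc (0.0699), Mnt (0.0877) and Tgfb1 (0.0882). The values were not scaled, so that genes with changes of like size come closest, and members with unlike fold changes have different neighbours for that reason alone.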

How the data were processed

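Scans were read by the authors in Affymetrix Expression Console, and the deposited values are log2 levels per probe set from robust multiarray averaging (RMA), after background correction and quantile normalization. Quantile normalization gives all arrays nearly the same distribution of levels, so that a change is relative to the rest of the array. Genes were named from the platform annotation: of 35556 probe sets, 23410 had a gene and 21789 exactly 1. limma 3.58.1 (R 4.3.3) was fitted with 1 mean per group over 12 arrays, with Benjamini-Hochberg adjustment of p over 23410 probe sets. The fit was tested on simulated data. Python 3.11.15 with pandas 2.3.3 and matplotlib 3.10.9 searched promoters and drew the plots. Named genes were all 9 members, up to 4 called genes of each pathway list with the largest change, and the 3 nearest patterns of each called member; the plot of pathway genes names every called gene. Members and lists were chosen with earlier results of these data known. Genes of the pathway lists without a probe set of their own were not analysed here. Alternatives covered normalization, prior variance, array weights, probe sets, samples in the fit, sex, a replicate block by animal, and each array left out in turn. Each group had 3 mice, and their number limits the precision.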

Additional observations from a re-analysis of the deposited data

Results flagged for a closer look

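The response to pilocarpine differed between mutants without SE and heterozygous mice with SE for Plaur by -1.46 and for Adamts1 by -2.10 (log2, interaction in limma). The same test picked out 2 of the 6 probe sets of Adamts9, probe set 4 by level with -0.48 and probe set 5 with -0.63, whereas the representative probe set gave 0.02. Since the mutants had no SE and the heterozygous mice had, genotype and SE cannot be told apart in these differences.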

How the results depend on the processing

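Of 835 values of members under alternatives, 822 kept their side of the threshold, 13 lost a call and 0 called values were reversed. Most of these values had no call to lose, and small uncalled ones, such as those of Mmp2 and Mmp9 in SE, could change sign. All 13 lost calls were of Adamts9, 11 in mutants and 2 in heterozygous mice. In mutants Adamts9 had an adjusted p from limma of 0.107 when the fit held the 2 compared groups alone and 0.0816 over all probe sets of the table, which left 1 member called in each, and of 0.0338 to 0.109 when single arrays were left out. The interaction called 1 member when dim probe sets were left out, since Plaur was then not tested. Leaving out single arrays gave 3 to 4 members called in SE, 1 to 2 in mutants, 2 in the interaction in each case and 0 between controls, and 1989 to 2938, 162 to 448, 535 to 986 and 8 to 47 probe sets called in these contrasts. For mutants the probe sets called were 430, against 688 without dim ones, 161 with only the compared groups and 246 over all probe sets of the table. Between controls they were 28, against 9 with only the compared groups, 11 over all probe sets of the table, 10 over those with 1 gene, 16 with the mean of the probe sets of a gene and 12 with sex as a covariate. With the animal number as a replicate block they were 15, and no call of a member changed; same-numbered animals correlated at -0.12 to 0.05 in heterozygous mice and -0.31 to 0.14 in mutants, so that the numbers were not taken as pairs.

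The number of arrays, 3 per group, limits the precision of every value. The 5 members with levels below the median were not tested against background, as the deposited values carry no detection call.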
